A study of Mus musculus with 3 samples.

Results

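Vascular basement membrane genes were described in retinal cells of mice at postnatal day 6 (P6). The set was taken by symbol from the deposited gene table and held 10 of its 33696 genes. It comprised *Col4a1*, *Col4a2*, *Col18a1* and *Col15a1*, the laminin chains *Lama4*, *Lama5*, *Lamb1* and *Lamc1*, the nidogen *Nid1* and the perlecan gene *Hspg2*. Each symbol matched 1 row. The rule used gene symbols and no measured value.

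There were 3 single-cell RNA-seq libraries, 1 each from wild-type (WT), *Tspan12* knockout (*Tspan12* KO) and *Ctnnb1* conditional knockout (*Ctnnb1* cKO) mice on a C57BL/6 background. *Tspan12* encodes a tetraspanin co-receptor for Norrin, and the KO line lacks it in every cell. The cKO mice carried loxP-flanked *Ctnnb1* alleles and *Pdgfb*-iCreER, a tamoxifen-inducible Cre active in endothelial cells (ECs), and were given tamoxifen in the first days after birth. Whether WT and *Tspan12* KO mice were given tamoxifen is not given in the sources used here. The study used mice of both sexes. Retinas of several pups were pooled per genotype, WT pups came from other litters than the knockouts, and cells were enriched with magnetic beads against CD31 and CD11b, markers of ECs and of microglia. The comparison asks how the transcripts of the vessel basement membrane stood when Norrin and β-catenin signaling was interrupted. With 1 library per genotype there was no replicate check, so no test was made and every interval below is a 95% interval for counting error only.

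The basement membrane is the thin sheet of matrix on which ECs sit and which they share with pericytes. Laminin trimers assemble at the cell surface, a network of type IV collagen joins them, and nidogen and perlecan link both networks. In the growing retina, sprouting ECs lay down this sheet as they advance over a template of astrocytes.

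The libraries held 9951 WT, 14426 *Tspan12* KO and 9151 *Ctnnb1* cKO barcodes, with 92684519, 137114957 and 37008362 unique molecular identifiers (UMIs, each marking 1 captured transcript). After filtering, 560 WT, 314 *Tspan12* KO and 2726 *Ctnnb1* cKO cells were EC-like by their markers. All 10 EC markers had UMIs in the ECs of every library. The median depth was 15776 UMIs in WT ECs, 12175 in *Tspan12* KO ECs and 3292.5 in *Ctnnb1* cKO ECs. The cluster with most ECs was the same in WT and *Tspan12* KO but another in *Ctnnb1* cKO: cluster 13 held 470 of the WT and 176 of the *Tspan12* KO ECs, while cluster 6 held 1483 of the *Ctnnb1* cKO ECs. The labels call the enriched cells vascular, but the WT library held 2484 rod-like cells, that of *Tspan12* KO 3928 and that of *Ctnnb1* cKO 1638. Pericytes and other mural-like cells were fewer, at 16 in WT and 74 in each knockout library. Between 21 and 37 barcodes were shared by any 2 libraries. The targeted transcripts were counted from 3′ tags, whose place relative to the deleted exons is not given in the sources used here, so they check nothing. *Tspan12* stood at 95.7 CPM (UMI counts scaled to a common total) in WT ECs, 85.2 CPM in *Tspan12* KO ECs and 40.1 CPM in *Ctnnb1* cKO ECs. *Ctnnb1* stood at 524 CPM in WT ECs, 604 CPM in *Tspan12* KO ECs and 443 CPM in *Ctnnb1* cKO ECs.

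Summed, the 10 genes made up 0.51% of the UMIs of WT ECs, 0.70% of those of *Tspan12* KO ECs and 0.91% of those of *Ctnnb1* cKO ECs. Type IV collagen carried much of this sum: *Col4a1* and *Col4a2* together were 57.4% of the member UMIs in WT ECs, 54.3% in *Tspan12* KO ECs and 70.3% in *Ctnnb1* cKO ECs. In *Tspan12* KO ECs, 3 of 10 members lay at least 2-fold above WT (*Col18a1*, *Col15a1* and *Hspg2*), beside 2.32% of the 12267 genes with at least 50 UMIs. No member lay at least 2-fold below WT, beside 4.04% of genes. In *Ctnnb1* cKO ECs, 3 of 10 members lay at least 2-fold above WT (*Col4a1*, *Col4a2* and *Col15a1*), beside 8.24% of 12841 genes. No member lay 2-fold lower there, beside 12.9% of genes. At 1.5-fold, 4 members were higher in *Tspan12* KO beside 9.08% of genes, and 5 were higher in *Ctnnb1* cKO beside 16.4% of genes.

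The median log2 ratio of the members to WT was 0.40 in *Tspan12* KO, where that of all genes was 0.02. In *Ctnnb1* cKO the median over the members was 0.57 and that over all genes was -0.13. Scaling by trimmed means (TMM) in place of total UMIs shifted all *Ctnnb1* cKO ratios by 0.14 and placed the median of all genes at 0.01. Under TMM, 50.6% of the *Ctnnb1* cKO genes past 2-fold were higher, against 39.0% under total scaling. No member changed sign under TMM, but *Col18a1*, which lay close to 2-fold in both knockout libraries, crossed it: 2 members then passed in *Tspan12* KO, beside 2.1% of genes, and 4 in *Ctnnb1* cKO, beside 10.3% of genes. In the only subcluster with 20 ECs of every library, a small one with both EC and rod genes, the medians were -0.081 and -0.24.

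**Figure D1:**
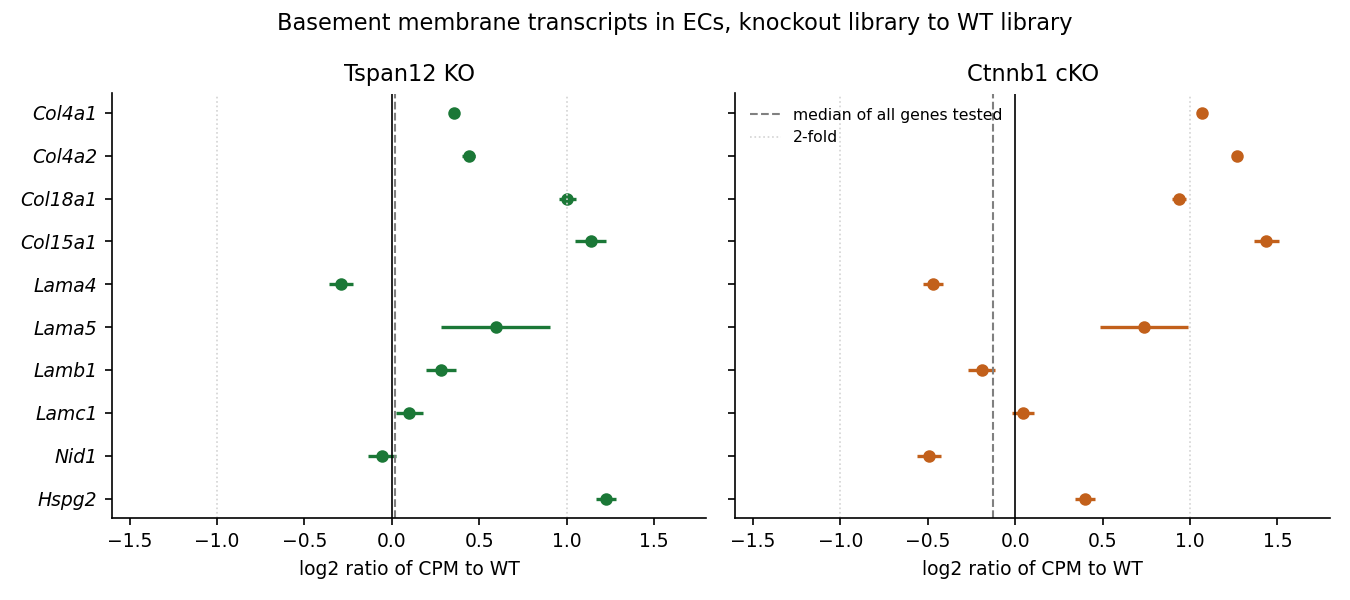
Log2 ratio of CPM in ECs of the *Tspan12* KO library (left) and the *Ctnnb1* cKO library (right) to WT ECs for each gene; bars are 95% counting intervals, the dashed line is the median of all genes tested and the dotted lines mark 2-fold. In both panels the 4 collagen genes and *Lama5* lie to the right of 0 and *Lama4* to the left, and *Hspg2* is the gene farthest right in *Tspan12* KO.

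Type IV collagen is the load-bearing network, and its common form joins α1 and α2 chains. *Col4a1* (ENSMUSG00000031502), the α1 chain, stood at 1931 CPM in WT ECs, 2476 CPM in *Tspan12* KO ECs and 4054 CPM in *Ctnnb1* cKO ECs. *Col4a2* (ENSMUSG00000031503), the α2 chain, stood at 973 CPM in WT ECs, 1321 CPM in *Tspan12* KO ECs and 2346 CPM in *Ctnnb1* cKO ECs. Both chains thus followed 1 order of libraries, and no intervals overlapped. The log2 ratio of *Col4a1* to WT was 0.36 (0.33 to 0.39) for *Tspan12* KO and 1.07 (1.05 to 1.09) for *Ctnnb1* cKO. That of *Col4a2* was 0.44 (0.40 to 0.48) for *Tspan12* KO and 1.27 (1.24 to 1.30) for *Ctnnb1* cKO. The *Ctnnb1* cKO values correspond to 2.10-fold for *Col4a1* and 2.41-fold for *Col4a2*.

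The pair is a known head-to-head locus. In the RefSeq annotation of GRCm38.p6, *Col4a1* starts at position 11312826 of chromosome 8 on the minus strand and *Col4a2* at position 11312805 on the plus strand. The starts are 21 bases apart and the transcripts overlap by 22 bases. In the GENCODE annotation, all 250 bases before either start lie in exons of the other gene, so they are not shown. Counts were made from 3′ ends, which lie at opposite outer ends of this locus. Across 38 pairs of cell class and library, the gene whose profile was closest to that of *Col4a1* among 15629 genes was *Col4a2* (Pearson's r of log2(CPM + 5) = 0.98). The next 4 were *Flt1* (r = 0.97), *Tm4sf1*, *Tie1* and *Ptprb* (each r = 0.96), transcripts of ECs. Of the other members, *Lama4* ranked 11 (r = 0.95), *Nid1* ranked 25 (r = 0.94), *Col15a1* ranked 29 (r = 0.93), *Hspg2* ranked 36 (r = 0.92) and *Lama5* was the farthest, at rank 1034 (r = 0.56). These correlations describe the profiles over classes that share libraries, and carry no p-value.

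*Col18a1* and *Col15a1* encode the multiplexin collagens, whose C-terminal fragments are endostatin and restin. *Col18a1* (ENSMUSG00000001435) stood at 467 CPM in WT ECs, 937 CPM in *Tspan12* KO ECs and 894 CPM in *Ctnnb1* cKO ECs. Relative to WT, the log2 ratio was 1.005 (0.96 to 1.05) for *Tspan12* KO and 0.94 (0.90 to 0.98) for *Ctnnb1* cKO. The knockout libraries thus stood near each other and both at about 2-fold. *Col15a1* (ENSMUSG00000028339), which marks the outer zone of the basement membrane, stood at 139 CPM in WT ECs, 306 CPM in *Tspan12* KO ECs and 376 CPM in *Ctnnb1* cKO ECs. The log2 ratio to WT was 1.14 (1.05 to 1.23) for *Tspan12* KO and 1.44 (1.37 to 1.51) for *Ctnnb1* cKO, the highest of the 10 genes in the latter.

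In *Tspan12* KO, both values rested in part on 1 subcluster of ECs. When the ECs of all libraries were clustered again without the matrix genes, 61 *Tspan12* KO cells and 2 *Ctnnb1* cKO cells formed a subcluster led by *Nkd1*, *Pdzrn4*, *Efhd1* and *Boc*, with no WT cell. It held 25.4% of the UMIs of *Tspan12* KO ECs, but 52.1% of their *Col18a1* UMIs and 43.8% of their *Col15a1* UMIs. *Col18a1* stood at 1919 CPM and *Col15a1* at 528 CPM in these cells. The marker lists gave it the name rod, from 3 of 8 markers. That name was set aside after the values were seen, since its summed EC markers were 10149 CPM and its summed rod markers 311 CPM. Without it, the *Tspan12* KO log2 ratio was 0.37 for *Col18a1* and 0.73 for *Col15a1*, and *Hspg2* alone lay past 2-fold (log2 ratio 1.19), beside 1.79% of genes.

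Perlecan, the product of *Hspg2* (ENSMUSG00000028763), is the large heparan sulfate proteoglycan of the vessel wall and binds growth factors. *Hspg2* stood at 316 CPM in WT ECs, 740.4 CPM in *Tspan12* KO ECs and 417 CPM in *Ctnnb1* cKO ECs. Here the *Tspan12* KO library was the high one, with a log2 ratio to WT of 1.23 (1.17 to 1.29), and *Ctnnb1* cKO lay between, at 0.40 (0.34 to 0.46). The *Tspan12* KO ratio was between 1.11 and 1.63 under the 16 alternatives tried.

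The 250 bases before the transcript starts were read for 8 of the members from RefSeq (GRCm38.p6). *Lama4* and *Lamc1* had no entry. The stretches free of GENCODE exons are shown for the 3 genes that lay past 2-fold in *Tspan12* KO ECs. They are given so that any shared short motif can be seen, with motif matches in capitals. *Col15a1* is at chr4:47207762-47208011 on the plus strand, *Col18a1* (the first of 2 starts) at chr10:77166549-77166780 on the minus strand and *Hspg2* at chr4:137468553-137468768 on the plus strand.
Col15a1: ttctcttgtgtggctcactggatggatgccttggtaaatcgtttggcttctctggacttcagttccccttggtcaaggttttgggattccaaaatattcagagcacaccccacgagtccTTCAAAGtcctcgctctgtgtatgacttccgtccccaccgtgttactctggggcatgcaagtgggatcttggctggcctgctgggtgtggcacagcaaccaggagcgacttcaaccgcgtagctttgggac
Col18a1: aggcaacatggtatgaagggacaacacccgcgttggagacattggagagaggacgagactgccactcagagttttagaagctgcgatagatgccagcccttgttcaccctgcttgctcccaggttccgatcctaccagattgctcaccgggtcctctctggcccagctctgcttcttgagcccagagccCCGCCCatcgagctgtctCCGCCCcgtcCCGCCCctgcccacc
Hspg2: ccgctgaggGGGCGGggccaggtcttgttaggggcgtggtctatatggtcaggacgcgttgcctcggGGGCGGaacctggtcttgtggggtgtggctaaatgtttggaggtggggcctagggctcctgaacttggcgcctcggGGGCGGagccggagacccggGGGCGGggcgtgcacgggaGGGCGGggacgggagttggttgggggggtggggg
The capitals in *Col15a1* mark a match to CTTTGAA, a form of the motif bound by TCF/LEF factors, the partners of β-catenin, read on the other strand. Those in *Hspg2* (5 matches) and *Col18a1* (3 matches, on the other strand) mark the Sp-type GC box GGGCGG. On both strands of the 9 member windows, CTTTGAA was found in 1, CTTTGAT in 0, the ETS motif CCGGAAGT in 0, GGGCGG in 6 and TATAAA in 0. Of all 32851 windows, 4.46% held CTTTGAA, 3.21% CTTTGAT, 2.88% CCGGAAGT, 32.7% GGGCGG and 12.4% TATAAA. The member windows had a median GC content of 64.4%, against 52.4% over all windows. No motif searched was in all 3 windows shown, and a match or its absence here says nothing of binding.

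Among the laminins, the α chain sets the trimer, since β1 and γ1 are shared. Laminin α4 is the chain of young and growing vessels, and α5 is deposited later in arteries and mature capillaries. *Lama4* (ENSMUSG00000019846) stood at 449 CPM in WT ECs, 368 CPM in *Tspan12* KO ECs and 324 CPM in *Ctnnb1* cKO ECs. It was the only member with an interval below 0 in both libraries, with a log2 ratio of -0.29 (-0.36 to -0.22) for *Tspan12* KO and -0.47 (-0.53 to -0.42) for *Ctnnb1* cKO. *Lama5* (ENSMUSG00000015647) was scarce, at 14.2 CPM (233 UMIs) in WT ECs, 21.5 CPM (139 UMIs) in *Tspan12* KO ECs and 23.7 CPM (299 UMIs) in *Ctnnb1* cKO ECs. The log2 ratio to WT was 0.60 (0.28 to 0.91) for *Tspan12* KO and 0.74 (0.49 to 0.99) for *Ctnnb1* cKO. The α chains therefore stood on opposite sides of WT in both knockout libraries. With ECs picked cell by cell on 3 markers in place of clusters, *Lama4* had ratios of 0.11 and 0.28, so its direction depends on which cells count as ECs.

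The common chains varied less. *Lamb1* (ENSMUSG00000002900), laminin β1, stood at 206 CPM in WT ECs, 250.4 CPM in *Tspan12* KO ECs and 180.2 CPM in *Ctnnb1* cKO ECs. The log2 ratio to WT was 0.28 (0.20 to 0.37) for *Tspan12* KO and -0.19 (-0.27 to -0.11) for *Ctnnb1* cKO. *Lamc1* (ENSMUSG00000026478), laminin γ1, stood at 269.5 CPM in WT ECs, 289 CPM in *Tspan12* KO ECs and 278 CPM in *Ctnnb1* cKO ECs, within 10% of WT. *Nid1* (ENSMUSG00000005397), nidogen-1, which bridges laminin γ1 and type IV collagen, stood at 291 CPM in WT ECs, 279.9 CPM in *Tspan12* KO ECs and 207 CPM in *Ctnnb1* cKO ECs. The log2 ratio to WT was -0.06 (-0.14 to 0.02) for *Tspan12* KO and -0.49 (-0.56 to -0.42) for *Ctnnb1* cKO. *Nid1* was therefore the lowest of the 10 ratios in *Ctnnb1* cKO, where *Col15a1* was the highest. Without the proliferative subclusters, *Lamb1* stood at -0.41 and *Lamc1* at -0.52 in *Tspan12* KO. With ECs picked on markers, *Lamb1* stood at 0.53 and *Nid1* at 0.24 in *Ctnnb1* cKO.

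Ratios between partner transcripts within a library do not depend on the scaling of its total. A 3′ UMI is 1 tag per transcript, so no length scaling was applied, although capture can differ between genes. *Col4a1* UMIs per *Col4a2* UMI were 1.98 (1.95 to 2.02) in WT ECs, 1.87 (1.83 to 1.92) in *Tspan12* KO ECs and 1.73 (1.70 to 1.75) in *Ctnnb1* cKO ECs. The mural-like cells followed the same order, at 2.22 in the 16 WT cells and at 1.90 and 1.79 in *Tspan12* KO and *Ctnnb1* cKO, whose intervals overlapped. *Lama4* per *Lama5* was 31.6 (27.8 to 36.2) in WT ECs, 17.1 (14.4 to 20.4) in *Tspan12* KO ECs and 13.7 (12.2 to 15.4) in *Ctnnb1* cKO ECs. The WT ratio lay above both knockout ratios, whose intervals overlapped. *Lamb1* per *Lamc1* was 0.76 in WT ECs, 0.87 in *Tspan12* KO ECs and 0.65 in *Ctnnb1* cKO ECs. *Col18a1* per *Col15a1* was 3.36 in WT ECs, 3.06 in *Tspan12* KO ECs and 2.38 in *Ctnnb1* cKO ECs.

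**Figure D2:**
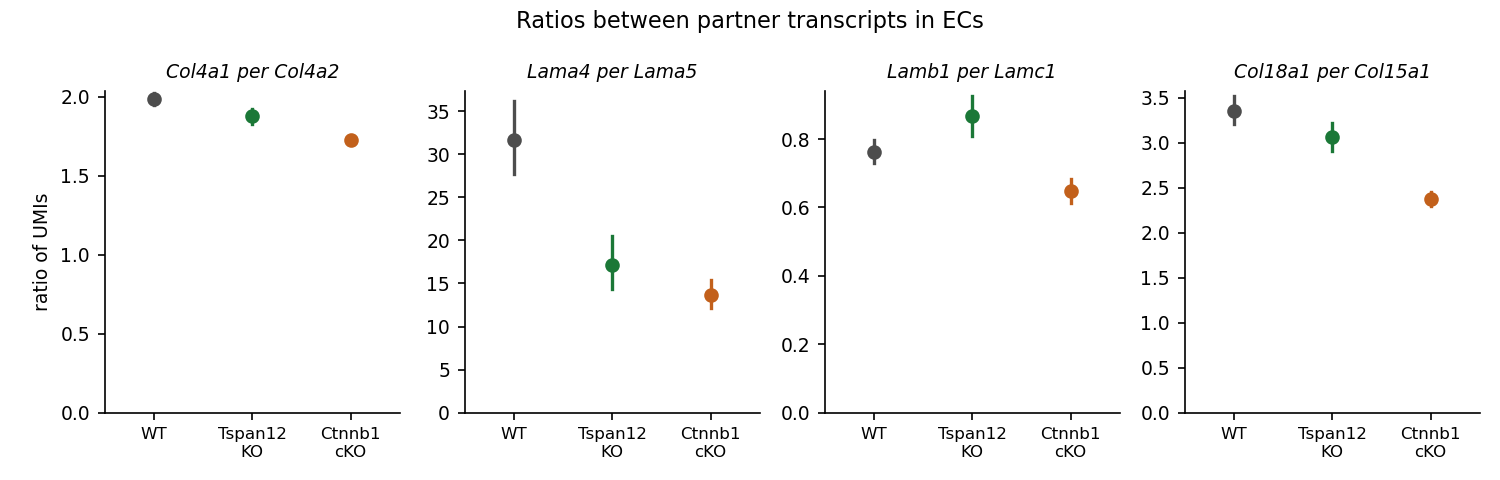
Ratio of UMIs between partner transcripts in ECs of each library (1 library per genotype, y axes start at 0); bars are 95% counting intervals. The ratio of *Lama4* to *Lama5* is 31.6 in WT against 17.1 and 13.7 in the knockout libraries, whereas *Col4a1* per *Col4a2* moves only from 1.98 to 1.73.

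Depth differed between the EC sets, so the share of cells with a UMI was also taken after thinning each cell to 2000 UMIs, which left out 26 WT, 43 *Tspan12* KO and 843 *Ctnnb1* cKO ECs. *Col15a1* was then found in 19.3% of WT ECs, 38.0% of *Tspan12* KO ECs and 43.2% of *Ctnnb1* cKO ECs. Before thinning the shares were 57.9%, 69.7% and 55.6%. *Hspg2* was found in 44.4% of WT ECs, 72.3% of *Tspan12* KO ECs and 52.3% of *Ctnnb1* cKO ECs after thinning, and in 85.5%, 85.0% and 68.3% before it. Thinned and summed values gave 1 order of libraries for both genes. *Col4a1* was found in 94.9% of WT ECs, 94.5% of *Tspan12* KO ECs and 99.4% of *Ctnnb1* cKO ECs after thinning. Rods, which should lack these transcripts, carried *Col4a1* in 5.54% of WT cells, 3.65% of *Tspan12* KO cells and 26.5% of *Ctnnb1* cKO cells at that depth. Median depths of rods before thinning were 3410 UMIs in WT cells, 1950 UMIs in *Tspan12* KO cells and 1398.5 UMIs in *Ctnnb1* cKO cells.

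ECs of each library were also clustered on their own, which gave 7 subclusters for WT, 5 for *Tspan12* KO and 9 for *Ctnnb1* cKO. The genes of the set were left out of the clustering. Tip-like cells, the migrating front of a sprout, were named in this way in WT, where 23 cells led by *Esm1* and *Angpt2* formed 1 subcluster. These held the highest WT levels of *Col4a1* (3219 CPM), *Col15a1* (556 CPM), *Lamb1* (559 CPM), *Lamc1* (687 CPM), *Nid1* (546 CPM) and *Hspg2* (539 CPM). Relative to the other WT ECs, the log2 ratio in tip-like cells was 2.30 (2.16 to 2.44) for *Col15a1*, 1.61 (1.47 to 1.74) for *Lamb1* and 1.01 (0.90 to 1.11) for *Lama4*. *Lama5* stood there at only 7.2 CPM. When the ECs of all libraries were clustered together, 742 *Ctnnb1* cKO cells, with 1 *Tspan12* KO cell and no WT cell, also took the tip name, from 3 of 8 markers and with *Kit*, *Apod* and *Angpt2* among their leading genes. These *Ctnnb1* cKO cells held *Col4a1* at 4343 CPM, *Lama4* at 567 CPM, *Lamb1* at 303 CPM and *Col15a1* at 265 CPM. With *Ctnnb1* cKO ECs clustered alone, 568 cells matched the tip list best but took no name, since another list led their top genes.

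The arterial-like cells of WT, 37 cells led by *Mgp* and *Gja5*, had another profile. *Col18a1* stood at 1315 CPM and *Lama5* at 42.5 CPM, the highest WT levels of both, with log2 ratios to the other WT ECs of 1.65 (1.55 to 1.74) and 1.75 (1.19 to 2.26). *Col15a1* was lowest there, at 37.8 CPM. WT tip-like and arterial-like cells therefore stood at opposite ends for *Col15a1*. In *Ctnnb1* cKO, the 343 arterial-like cells again held the highest *Col18a1* of that library, 2120 CPM, but their *Col15a1* stood at 379 CPM. Between arterial-like cells of the 2 libraries, *Col15a1* had a log2 ratio of 3.33 (2.80 to 3.90), *Col18a1* of 0.69 (0.58 to 0.80) and *Col4a1* of 0.35 (0.27 to 0.43). No *Tspan12* KO subcluster was named arterial.

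Proliferative-like cells were named in every library and allowed the ratios to be read under 1 subtype name, in 220 WT, 104 *Tspan12* KO and 360 *Ctnnb1* cKO cells. The sets were not matched. In WT, 159 cells met 8 of 8 markers and 61 shallower cells 3 of 8. The *Tspan12* KO subclusters met 4 and 6 of 8, and that of *Ctnnb1* cKO 8 of 8. *Hspg2* stood at 298 CPM in WT, against 705 CPM in *Tspan12* KO, with a log2 ratio of 1.24 (1.16 to 1.33). The *Ctnnb1* cKO cells stood at 302 CPM, with a ratio of 0.02 (-0.10 to 0.14). *Col15a1* had a log2 ratio of 0.91 in both knockout libraries. *Col4a1* had a log2 ratio of 0.50 (0.46 to 0.54) for *Tspan12* KO and 0.94 (0.90 to 0.98) for *Ctnnb1* cKO, and *Col4a2* of 0.48 and 1.07. *Lamb1* stood at 0.76 (0.64 to 0.87) in *Tspan12* KO and *Nid1* at -0.64 (-0.79 to -0.48) in *Ctnnb1* cKO. In each knockout library, 1 member lay at least 2-fold above WT within these cells: *Hspg2* in *Tspan12* KO, beside 1.45% of genes, and *Col4a2* in *Ctnnb1* cKO, beside 5.21% of genes. *Lama4*, lower than WT over all *Tspan12* KO ECs, had a log2 ratio of 0.20 (0.11 to 0.29) in the proliferative-like cells of that library.

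Across all subclusters, *Hspg2* spanned 174 to 539 CPM in WT, 589 to 820 CPM in *Tspan12* KO and 192 to 624 CPM in *Ctnnb1* cKO. All 5 *Tspan12* KO subclusters stood above all 7 WT subclusters for this gene. *Col4a1* spanned 1178 to 3219 CPM in WT, 934 to 3378 CPM in *Tspan12* KO and 1616 to 6674 CPM in *Ctnnb1* cKO, so its ranges overlapped. The highest level, 6674 CPM, was in 219 *Ctnnb1* cKO cells led by *Lbp*, *Rasd1*, *Gpihbp1* and *Lpl*, where *Col4a2* was also at its highest, 3390.0 CPM. *Lamc1* spanned 121 to 687 CPM in WT, 71.6 to 476 CPM in *Tspan12* KO and 160.0 to 443 CPM in *Ctnnb1* cKO, although its level over all ECs hardly differed between libraries. All these ranges include 1 subcluster of 62 *Tspan12* KO cells and 1 of 18 *Ctnnb1* cKO cells that matched the rod list best. Each met 7 of 8 rod markers, and the part of rod transcripts in the low ends was not tested.

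**Figure D3:**
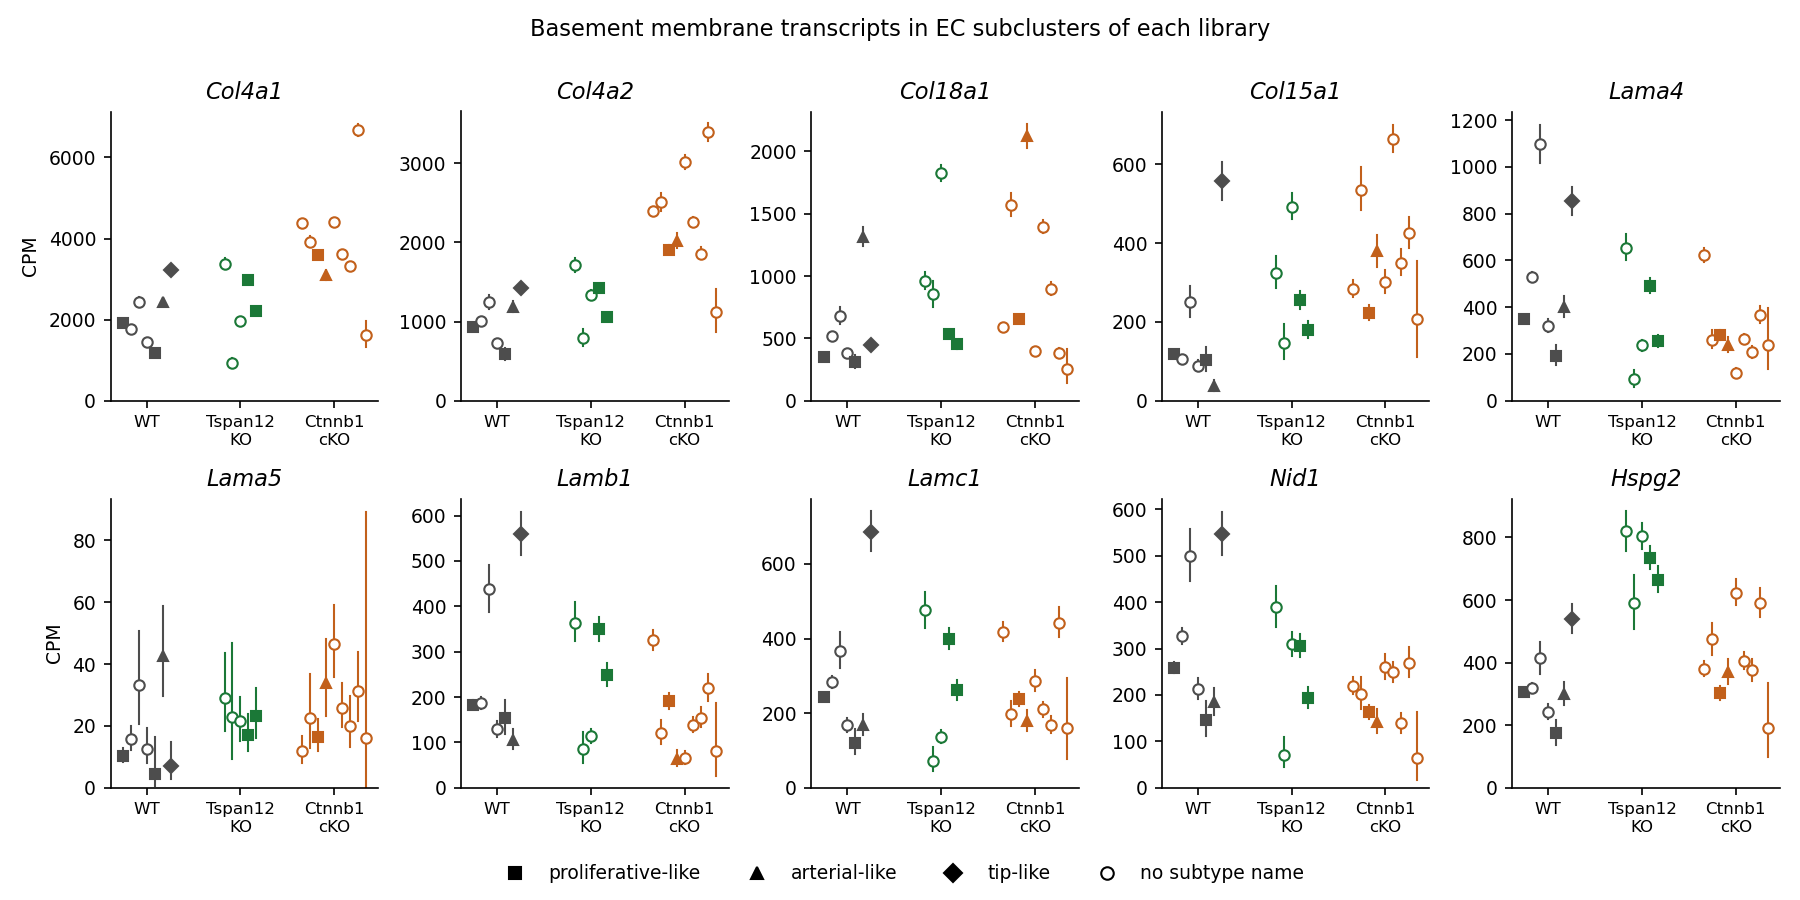
CPM of each gene in EC subclusters, with the ECs of each library clustered on their own; squares are proliferative-like, triangles arterial-like, diamonds tip-like and open circles subclusters with no subtype name (1 *Ctnnb1* cKO subcluster held 18 cells), and bars are 95% counting intervals. For *Hspg2* the 5 *Tspan12* KO points lie between 589 and 820 CPM, above the 7 WT points, while *Col18a1* is highest in arterial-like cells of WT and *Ctnnb1* cKO.

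In mural-like cells, which are embedded in the same basement membrane, the 10 genes summed to 5356 CPM in WT cells, 6491 CPM in *Tspan12* KO cells and 9984 CPM in *Ctnnb1* cKO cells. *Col4a1* stood at 2404 CPM in WT cells, 2623 CPM in *Tspan12* KO cells and 5072 CPM in *Ctnnb1* cKO cells. *Nid1* was the gene highest in mural-like cells relative to ECs, with log2 ratios to the ECs of the same library of 0.63 (0.45 to 0.80), 0.42 (0.29 to 0.56) and 0.96 (0.69 to 1.22). The multiplexins were lower than in ECs: *Col18a1* had log2 ratios of -1.16, -0.60 and -1.22, and *Col15a1* of -0.62, -0.67 and -1.27, in the order WT, *Tspan12* KO and *Ctnnb1* cKO. All 10 EC markers had UMIs in these cells, at summed levels of 5541 CPM in WT cells, 5028 CPM in *Tspan12* KO cells and 3763 CPM in *Ctnnb1* cKO cells, against 7324 to 8820 CPM in ECs. The part of EC transcripts in the mural values was not tested.

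Set against the 16 WT mural-like cells, those of *Tspan12* KO had log2 ratios of 1.57 (1.30 to 1.84) for *Col18a1*, 1.22 (0.98 to 1.47) for *Hspg2* and 1.09 (0.68 to 1.52) for *Col15a1*. In these cells 3.45% of genes lay 2-fold higher, and the same 3 members were past 2-fold in the ECs of that library. Mural-like cells carried EC markers, and the part of EC transcripts in this match was not tested. In *Ctnnb1* cKO, *Col4a1* had a log2 ratio of 1.08 (0.97 to 1.18) and *Col4a2* of 1.39 (1.24 to 1.53), where 7.19% of genes lay 2-fold higher. *Hspg2* stood at 257 CPM in WT cells, 599 CPM in *Tspan12* KO cells and 182 CPM in *Ctnnb1* cKO cells. Its log2 ratio to WT in the latter was -0.50 (-0.96 to -0.05), and between the 74 cells of each knockout library it was -1.72 (-2.13 to -1.33).

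The WT library held 22 astrocyte-like cells and that of *Tspan12* KO 57, while *Ctnnb1* cKO had 4, with only 1 UMI of a member. *Col4a1* stood at 349.7 CPM in WT and 559 CPM in *Tspan12* KO, *Col4a2* at 250.3 CPM and 240.4 CPM, and *Col18a1* at 295 CPM and 289 CPM. *Lama5* was the only member at or above its EC level in these cells, at 30.9 CPM (9 UMIs) in WT and 43.2 CPM (37 UMIs) in *Tspan12* KO. Its log2 ratio to ECs was 1.12 (-0.03 to 2.07) in WT and 1.01 (0.44 to 1.54) in *Tspan12* KO. Between the libraries, *Col4a1* had a log2 ratio of 0.68, from 479 UMIs in *Tspan12* KO and 102 UMIs in WT, with an interval above 0. *Col15a1* had a log2 ratio of 1.82 (0.51 to 3.51) from 52 and 5 UMIs. Few cells carried these UMIs. Before thinning, *Col15a1* was found in 4.55% of WT and 10.5% of *Tspan12* KO cells, and *Col4a1* in 27.3% and 33.3%. After thinning to equal depth, *Col4a1* was found in 4.76% (0.12 to 23.8) of 21 WT cells. In *Tspan12* KO it was found in 15.4% (6.88 to 28.1) of 52 cells, so these intervals overlapped. The intervals on summed UMIs do not cover differences between cells. Summed EC markers in these cells were 2472 CPM in WT and 1107 CPM in *Tspan12* KO, and their part in the collagen values was not tested.

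Muller glia-like cells, the radial glia of the retina, numbered 626 in WT and 812 in *Tspan12* KO, but only 40 in *Ctnnb1* cKO. *Col18a1* was the member farthest above its level in rods of the same library, with a log2 ratio of 2.54 in WT and 2.34 in *Tspan12* KO, at 64.6 CPM and 65.1 CPM. *Col15a1*, *Lama4* and *Lamb1* had intervals that included the rod level in both. The glia thus held the 1 multiplexin and not detectably the other: *Col18a1* UMIs per *Col15a1* UMI were 27.8 in WT and 34.0 in *Tspan12* KO Muller glia, against 3.36 and 3.06 in ECs. Progenitor-like cells shared this pattern. Their *Col18a1* log2 ratio to rods was 1.84 in WT and 1.44 in *Tspan12* KO, with both intervals above the rod level. Their *Col15a1* intervals included the rod level in both libraries. *Lamc1* stood at 38.1 CPM in WT and 36.4 CPM in *Tspan12* KO glia, with *Lamb1* at 0.10 per *Lamc1* UMI in both. This was not particular to the glia. Rods held *Lamc1* at 27.6 CPM and 26.8 CPM, with *Lamb1* at 0.12 and 0.08 per *Lamc1* UMI. Progenitor-like cells held *Lamc1* at 37.0 CPM and 37.6 CPM. In *Ctnnb1* cKO, *Col4a1* stood at 171 CPM in Muller glia and 174 CPM in rods. *Col18a1* in these 40 cells had a log2 ratio to rods of 0.91 (0.04 to 1.66), from 15 UMIs.

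Rod-like cells were read as the level that transcripts of other cells can reach, taking rods to lack them. The 10 genes summed to 99.9 CPM in rods of WT, 83.9 CPM of *Tspan12* KO and 464.5 CPM of *Ctnnb1* cKO, where ECs were the most numerous. *Col4a1* in rods was 25.6 CPM, 17.9 CPM and 174 CPM, against 1931, 2476 and 4054 CPM in ECs. *Lamc1* had another pattern, at 27.6 CPM, 26.8 CPM and 29.2 CPM in rods. ECs held it at 9.75, 10.8 and 9.54 times the rod level, against 75.4, 139 and 23.3 times for *Col4a1*. Whether rods make *Lamc1* was not tested, so the summed rod values may hold more than transcripts of other cells. Subtracting the rod level from the EC level left the count of members past 2-fold at 3 in each knockout library. No share of all genes was taken under this subtraction, so the count is not read further. The share of each gene's UMIs that lay in ECs depends on enrichment, and for *Col4a1* it was 88.9% of its UMIs in WT cells, 68.7% of those in *Tspan12* KO cells and 91.4% of those in *Ctnnb1* cKO cells. The lowest shares were those of *Lamc1*, 70.3% in WT and 38.3% in *Tspan12* KO, and of *Lama5*, 71.7% and 44.3%.

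**Figure D4:**
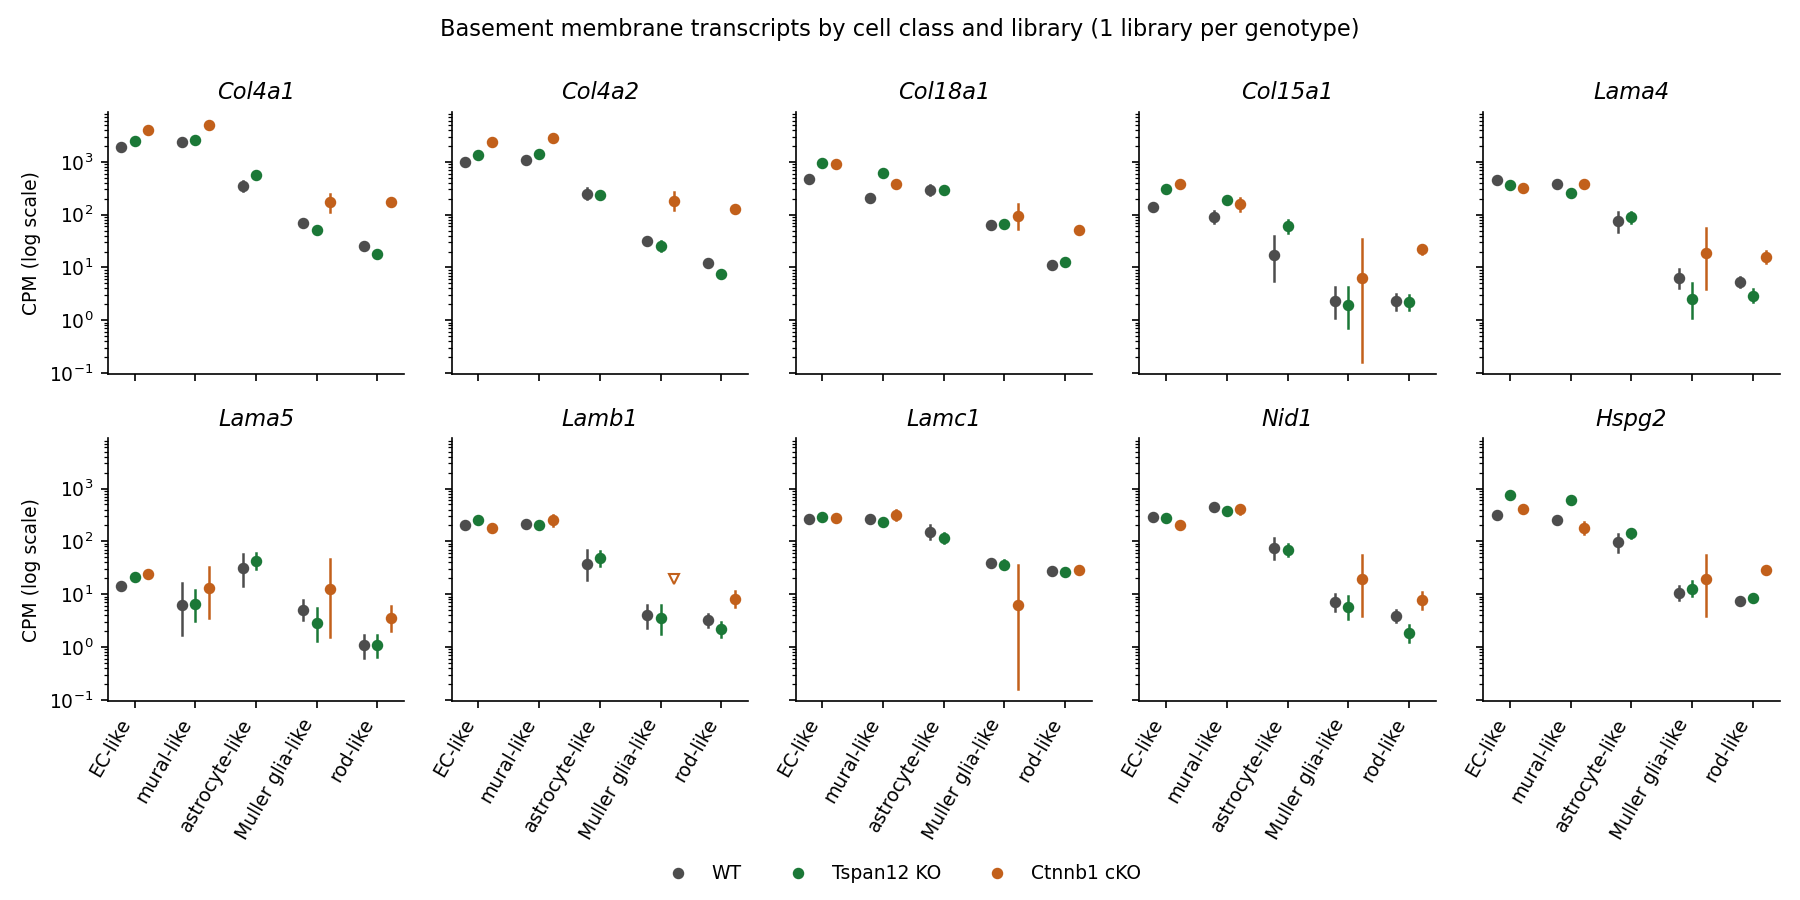
CPM of each gene (log scale) in EC-like, mural-like, astrocyte-like, Muller glia-like and rod-like cells of the 3 libraries; bars are 95% counting intervals, an open triangle marks the upper limit that a count of 0 allows, and the 4 *Ctnnb1* cKO astrocyte-like cells are left out. Either ECs or mural-like cells are highest for 9 genes, *Lama5* is highest in astrocyte-like cells, and *Ctnnb1* cKO rods carry *Col4a1* at 174 CPM against 25.6 CPM in WT.

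Other genes of the matrix were counted in ECs from 6 lists of 90 genes, with unlabelled levels given in the order WT, *Tspan12* KO and *Ctnnb1* cKO and paired log2 ratios in the order of the knockouts. The counts at 2-fold of each list stand beside the shares of all genes. These were 2.32% higher and 4.04% lower in *Tspan12* KO, and 8.24% higher and 12.9% lower in *Ctnnb1* cKO. Of the 6 of 9 further laminins, nidogen and agrin with enough UMIs, 1 lay 2-fold higher in *Tspan12* KO and 2 in *Ctnnb1* cKO, with none lower and median log2 ratios of -0.15 and 0.31. *Lamc3*, laminin γ3, stood at 1.65 CPM in WT ECs, 4.18 CPM in *Tspan12* KO ECs and 7.69 CPM in *Ctnnb1* cKO ECs. *Lamb2*, the β2 chain of mature vessels, stood at 21.4 CPM, 27.8 CPM and 49.2 CPM, a log2 ratio of 0.38 and 1.21. *Nid2*, nidogen-2, had ratios of -0.03 and -0.23 and *Agrn*, agrin, of -0.45 and -0.12. *Lama1* and *Lama2*, chains of other basement membranes, stood under 4 CPM in every library. Of 11 other collagens, only *Col5a2* had enough UMIs, with log2 ratios of 0.16 and -0.55.

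Of 16 of 20 vessel wall glycoproteins with enough UMIs, none lay past 2-fold in *Tspan12* KO, while 4 were higher and 2 lower in *Ctnnb1* cKO, with medians of 0.18 and 0.25. Of all genes, 8.24% were higher and 12.9% lower in *Ctnnb1* cKO. *Fn1*, the fibronectin of provisional matrix, stood at 685 CPM in WT ECs, 361 CPM in *Tspan12* KO ECs and 197 CPM in *Ctnnb1* cKO ECs, opposite in direction to *Col4a1*. *Vwa1*, a perlecan-binding protein, followed *Fn1* at 602 CPM, 335 CPM and 204 CPM, while its partner *Hspg2* was lowest in WT. *Mmrn2*, an EC matrix protein, stood at 107 CPM, 189 CPM and 254 CPM, and *Fbln2*, a fibulin, at 10.2 CPM, 12.1 CPM and 79.9 CPM. *Sparc*, a collagen-binding protein, stood at 3291 CPM, 3104 CPM and 4450.0 CPM.

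Receptors that hold ECs to the membrane gave 0 of 17 genes higher and 1 lower at 2-fold in *Tspan12* KO, and 3 higher and 3 lower in *Ctnnb1* cKO, with medians near 0 and of 0.35. The shares of all genes in *Ctnnb1* cKO were 8.24% higher and 12.9% lower. *Itgb1*, the common laminin and collagen receptor chain, had log2 ratios of -0.44 and 0.05. *Itga6*, a laminin receptor chain, had ratios of 0.69 and -0.21, and *Dag1*, dystroglycan, of 0.54 and 0.68. *Itga9*, which pairs with *Itgb1*, stood at 0.99 and 1.24. *Itga2*, a collagen receptor chain, stood at 0.04 and -1.04.

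Genes of collagen synthesis had medians near 0 (0.19 and 0.04), with 0 of 12 past 2-fold in *Tspan12* KO and 1 lower in *Ctnnb1* cKO. That gene was *Serpinh1*, the collagen chaperone HSP47, at 657 CPM in WT ECs, 958 CPM in *Tspan12* KO ECs and 319 CPM in *Ctnnb1* cKO ECs. The log2 ratio to WT was 0.54 (0.50 to 0.59) for *Tspan12* KO and -1.04 (-1.09 to -0.99) for *Ctnnb1* cKO, where *Col4a1* and *Col4a2* were more than 2-fold higher. *Ppib*, a collagen prolyl isomerase, had ratios of 0.01 and -0.73. *Serpinh1* and the type IV collagens thus stood on the same side of WT in *Tspan12* KO and on opposite sides in *Ctnnb1* cKO.

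Among 14 matrix remodelling genes, 3 were higher and 4 lower at 2-fold in *Tspan12* KO, and 3 higher and 3 lower in *Ctnnb1* cKO, with medians of -0.10 and 0.00. Over all genes, 2.32% were higher and 4.04% lower in *Tspan12* KO, and 8.24% and 12.9% in *Ctnnb1* cKO. *Timp3*, a protease inhibitor that binds the matrix, stood at 66.2 CPM in WT ECs, 135.0 CPM in *Tspan12* KO ECs and 469 CPM in *Ctnnb1* cKO ECs. *Mmp2*, a gelatinase that cleaves type IV collagen, was scarce, at 1.10 CPM (18 UMIs), 7.27 CPM (47 UMIs) and 33.9 CPM (427 UMIs). *Timp2* stood at 15.7 CPM, 36.8 CPM and 52.3 CPM. *Mmp14*, which activates the *Mmp2* product, had log2 ratios of -0.20 and 0.26. *Mmp2*, *Timp2* and *Timp3* thus each stood above WT in both knockout libraries. Genes on the lower side, named after their values were seen, included *Adamts9*, a secreted metalloprotease, with log2 ratios of -1.24 and -1.37, and *Plat*, the tissue plasminogen activator, with -1.41 and -1.23. *Adamts1*, a related metalloprotease, had ratios of -1.36 and -0.37, and *Mmp25*, a membrane-anchored protease, of -0.97 and -1.23.

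**Figure D5:**
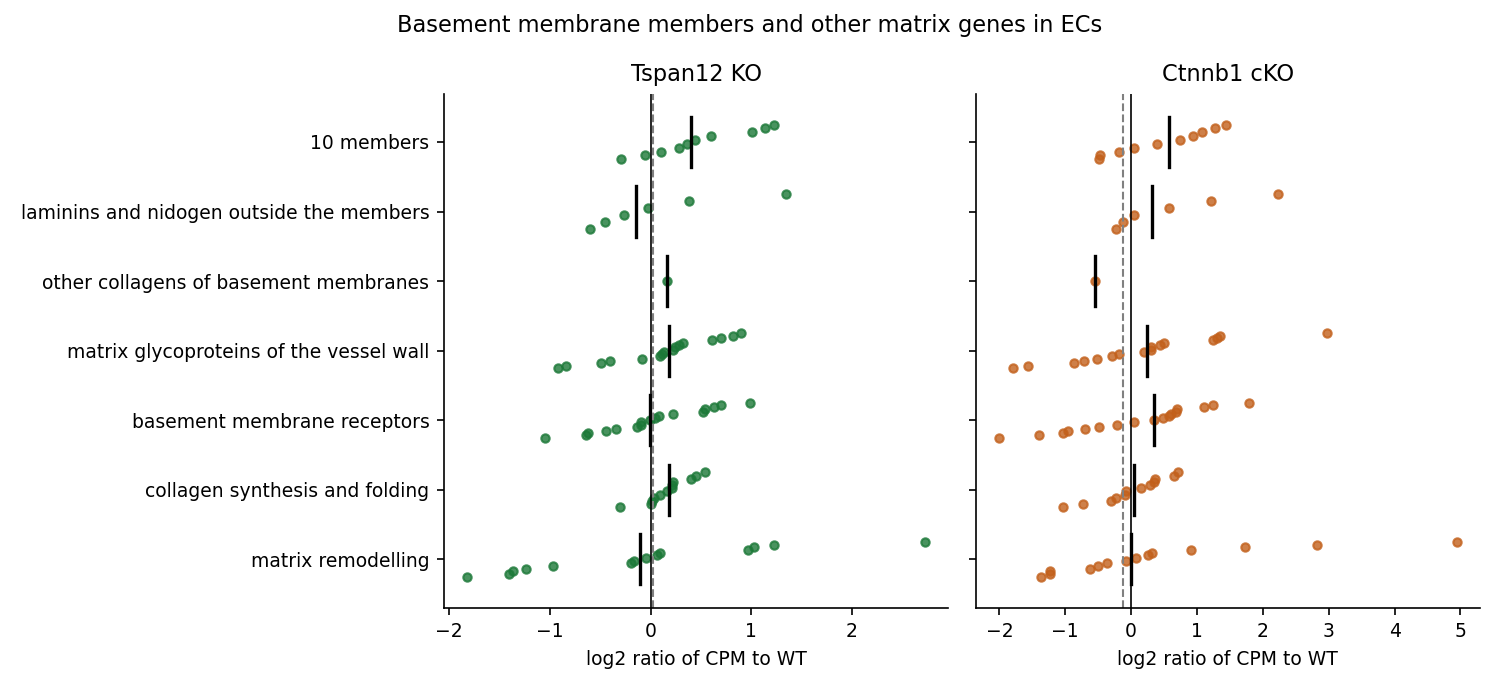
Log2 ratio of CPM in ECs to WT for the 10 basement membrane genes and the 6 other lists, 1 point per gene with at least 50 UMIs; short black lines are list medians and the dashed line is the median of all genes tested. The median of the 10 genes is 0.40 for *Tspan12* KO and 0.57 for *Ctnnb1* cKO. *Mmp2*, with only 18 UMIs in WT ECs, is the point farthest right in both panels.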

How the data were processed

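The files hold raw UMI counts per gene and barcode, deposited by the authors as Cell Ranger matrices (header version 8.0.1; the methods name another) from a 3′ droplet kit. The submitters' processing notes name GRCm39 and the methods an older reference, so the build was not settled. Strand settings were not given in the sources used here, so overlapping genes may share reads.

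Cells needed 250 genes and 500 UMIs, with mitochondrial UMIs not above 15%. Doublets were scored against simulated ones and removed at 0.8% per 1000 cells (760 WT, 1656 *Tspan12* KO and 665 *Ctnnb1* cKO), which left 8989, 12732 and 8451. The 2000 most variable genes, without the members and 6 matrix lists, 30 components, 20 neighbours and leidenalg version 0.10.2 at resolution 1 gave 30 clusters. Names needed 3 or more markers found in 10% of the cluster with a log2 fold of 1, and a mean log2 fold of 0.5 over the list, and stand for cells like that class. No integration was used, since library and genotype are 1 split.

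UMIs were summed per class and library and divided by their total (CPM). Ratios have exact conditional binomial, CPM exact Poisson and shares exact Clopper-Pearson intervals at 95%, for counting error only. Where a count was 0, 3 counts gave the upper limit. Genes past 2-fold were counted among those with at least 50 UMIs over both EC sets. Named were the members, up to 4 genes of each list with the largest ratio (CPM + 5) and a fixed few, the 5 genes most like *Col4a1*, and markers; leading genes of subclusters were named after their values were seen. The members, lists and markers were chosen with earlier results of these data known. Alternatives changed the scaling (TMM, edgeR version 4.0.16), filters, clustering and EC set. Scripts used Python version 3.11.15, numpy version 2.4.6, scipy version 1.17.1 and scikit-learn version 1.9.0, and were checked on simulated counts. Promoters were matched by symbol in the RefSeq table, and exons within them were taken from the GENCODE annotation. One gene of the matrix remodelling list is counted with its list but not reported here by name.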

Additional observations from a re-analysis of the deposited data

Results flagged for a closer look

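In 13 cases a member stood on opposite sides of WT in ECs and in another class of the same library, with neither counting interval reaching 0, among mural-like, astrocyte-like, Muller glia-like, rod-like, microglia-like and progenitor-like cells. The share of all genes that meet this rule was not taken, so the count is not read as a trait of the set. The difference between the classes was not tested in any of the 13 cases. In *Tspan12* KO these were the type IV collagens, whose EC log2 ratios to WT were 0.36 for *Col4a1* and 0.44 for *Col4a2*. *Col4a1* had a log2 ratio of -0.42 (-0.71 to -0.14) in Muller glia-like cells, -0.52 in rods, -1.21 in microglia and -0.61 in progenitors. *Col4a2* had a log2 ratio of -0.71 in rods and -1.52 in microglia. In *Ctnnb1* cKO, 3 members below WT in ECs were above it in rods, with log2 ratios of 1.58 for *Lama4*, 1.34 for *Lamb1* and 0.97 for *Nid1*. In microglia of that library the log2 ratios were 1.196 for *Lama4*, 1.35 for *Lamb1* and 1.33 for *Nid1*. Rods and microglia held these genes at a small part of the EC level, and the part of transcripts from other cells in these values, and in the glial one, was not tested. *Hspg2* in *Ctnnb1* cKO had a log2 ratio of -0.50 (-0.96 to -0.05) in mural-like cells and of 0.40 in ECs. The WT side of this mural ratio rests on 16 cells with 165 *Hspg2* UMIs and the *Ctnnb1* cKO side on 56 UMIs. After thinning to equal depth, *Hspg2* was found in 12.5% (1.55 to 38.3) of the 16 WT mural-like cells. In *Ctnnb1* cKO it was found in 22.4% (11.8 to 36.6) of the 49 cells deep enough for thinning. These shares stood in the order opposite to the summed values, with overlapping intervals, so the direction in mural-like cells was not settled.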

How the results depend on the processing

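Over 16 alternatives in *Tspan12* KO, 150 of the 160 single ratios kept their sign, and over 17 in *Ctnnb1* cKO, 162 of 170 did. *Col4a2*, *Col18a1*, *Col15a1*, *Lama5* and *Hspg2* kept theirs under each in *Tspan12* KO, and *Col4a1*, *Col4a2* and *Col15a1* in *Ctnnb1* cKO. The cause of a difference was not tested.

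The median over the 10 members in *Tspan12* KO, 0.40, was 0.68 with ECs gated by markers cell by cell and 0.23 without the proliferative subclusters. It was 0.44 without the subcluster led by *Nkd1*, 0.49 without that and the subcluster of mixed EC and rod genes, and 0.52 in proliferative-like ECs. The count past 2-fold was 1 under each of the last 3. Beside it lay 1.79% of genes without the *Nkd1* subcluster and 1.45% in proliferative-like ECs, with no such share for the setting without both subclusters. The median was -0.081 over the only subcluster with 20 cells in each library, the mixed one (83 WT, 74 *Tspan12* KO and 22 *Ctnnb1* cKO cells).

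The *Ctnnb1* cKO median, 0.57, was 1.38 under the gate, 0.39 in proliferative-like ECs, 0.19 in arterial-like ECs and -0.24 in the mixed subcluster. The count was 5 at 1.5-fold, beside 16.4% of genes, and 1 at 2-fold in proliferative-like ECs, beside 5.21% of genes. It was 6 under the gate and 1 in arterial-like ECs. For the gate and the arterial-like ECs there is no share of all genes to set beside the count, so neither count is read further. The gate took 832 WT, 303 *Tspan12* KO and 1801 *Ctnnb1* cKO cells.

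In *Tspan12* KO, single ratios changed side in the mixed subcluster (*Col4a1* -0.34, *Lamb1* -0.94 and *Lamc1* -0.79), under the gate (*Lama4* 0.11 and *Nid1* 0.35), in proliferative-like ECs (*Lama4* 0.20 and *Nid1* 0.034), without proliferative subclusters (*Lamb1* -0.41 and *Lamc1* -0.52) and as a mean over cells (*Lamb1* -0.054). In *Ctnnb1* cKO they did so in the mixed subcluster (*Col18a1* -0.31, *Lamc1* -0.42 and *Hspg2* -0.19), under the gate (*Lama4* 0.28, *Lamb1* 0.53 and *Nid1* 0.24), in arterial-like ECs (*Lama5* -0.32) and in proliferative-like ECs (*Lamb1* 0.072). The gate, the equal weighting and the removal of proliferative subclusters were planned. The settings without the *Nkd1* or mixed subclusters and within proliferative-like or arterial-like ECs were chosen after seeing the data.

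Without the minimum of 50 UMIs, 6843 genes in place of 781 lay past 2-fold in *Tspan12* KO and 9261 in place of 2712 in *Ctnnb1* cKO. No paired analysis was possible because each genotype has 1 library. Mural-like and astrocyte-like cells were too few for small differences, and genotype cannot be told apart from library.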

Other observations

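Pigment-like cells, 39 in *Tspan12* KO and 120 in *Ctnnb1* cKO, held *Col18a1* at 622 CPM and 1047 CPM, while *Col15a1* was at 0 CPM and 23.8 CPM and *Nid1* at 2.98 CPM and 7.32 CPM. *Lama5* stood at 68.4 CPM and 42.1 CPM in these cells, above its EC level of 21.5 CPM and 23.7 CPM.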
